A study of Rattus norvegicus with 8 samples.

Results

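The 10 immediate-early genes followed here, in rat blood cells cultured with 4 kinds of plasma, were *Fos*, *Fosb*, *Jun*, *Junb*, *Egr1*, *Egr2*, *Egr3*, *Nr4a1*, *Ier2* and *Ier3*. Their probe sets were taken by gene symbol, but the 10 genes were chosen with earlier results of these data known. Every probe set whose annotation named exactly 1 of these symbols was taken, which gave 14 of the 31042 probe sets on the array, for 10 of 14217 genes. *Jun* had 3 probe sets, *Fos* and *Egr2* had 2 each, and the other members had 1.

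The study asked whether plasma of adult rats that had lived through intermittent hypoxia (IH) as newborns changes transcription in healthy reporter cells. The reporters were peripheral blood mononuclear cells, the lymphocytes and monocytes of blood, from 2 healthy male Brown Norway rats (BN1 and BN2) about 180 days old. Each well held 500000 cells and 20% plasma and was kept for 6 h, and each of the 8 cultures went to its own Affymetrix rat expression array. Control plasma was pooled from 8 male Sprague-Dawley rats that had breathed 21% oxygen as pups, 5% IH plasma from 5 such rats cycled to 5% oxygen, and 10% IH plasma from 3 rats cycled to 10% oxygen. All 3 pools came from rats treated for 1 h a day on postnatal days 2 to 6 and bled as fasted adults (PD114), into EDTA. The fourth plasma was autologous Brown Norway plasma, the background culture, so that control and autologous plasma differed in donor strain and age as well as in not being the cells' own. For the autologous arrays the titles give BN1 or BN2 and were followed, but their source fields mention both rats at once, so the pairing of cells with plasma is in doubt there. Each Sprague-Dawley plasma was a single pool given to cells of 2 rats, so the spread between the 2 cultures of such a group holds reporter and array variation and none between plasma donors.

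Immediate-early genes are those a cell transcribes first after a stimulus, from factors already present in the cell and without new protein. Growth factors, cytokines, calcium and stress reach them through mitogen-activated protein kinases and through transcription factors such as serum response factor, which binds CArG boxes, and CREB, which binds cAMP response elements. Most of their transcripts are short-lived, rise fast and decay fast, so a culture of several hours shows what remains or is sustained. In monocytes and lymphocytes they are known as part of activation.

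Their products fall into 4 sets. *Fos*, *Fosb*, *Jun* and *Junb* encode subunits of AP-1, a leucine zipper dimer in which Fos proteins pair with Jun proteins. *Egr1*, *Egr2* and *Egr3* encode zinc finger factors that bind GC-rich sites. *Nr4a1* encodes an orphan nuclear receptor. *Ier2* encodes a small nuclear regulator, and *Ier3* a stress-induced protein linked to cell survival and NF-kB and not known as a DNA-binding factor.

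The sequences just upstream of 3 members are shown. *Nr4a1* was higher with every Sprague-Dawley plasma than with autologous plasma, and *Ier2* was lower with 10% IH than with control plasma. *Junb* is the AP-1 gene whose ratio lay in the other direction with 10% IH plasma. *Ier3* and *Fos*, with larger ratios to autologous plasma, had no such sequence at hand. Windows run from 250 bases before to 50 bases after the annotated start, are RefSeq sequence of build GRCr8 and are written 5′ to 3′ on the strand of the gene. Capitals mark the cAMP response element core TGACG on either strand (CGTCA when read from the other strand), and the capitals of *Ier2* make up the palindrome TGACGTCA. *Nr4a1* lies at chr7:134259888-134260187 (+ strand, inside the annotated span of the gene), *Ier2* at chr19:40399123-40399422 (+ strand) and *Junb* at chr19:40080876-40081175 (+ strand).
Nr4a1: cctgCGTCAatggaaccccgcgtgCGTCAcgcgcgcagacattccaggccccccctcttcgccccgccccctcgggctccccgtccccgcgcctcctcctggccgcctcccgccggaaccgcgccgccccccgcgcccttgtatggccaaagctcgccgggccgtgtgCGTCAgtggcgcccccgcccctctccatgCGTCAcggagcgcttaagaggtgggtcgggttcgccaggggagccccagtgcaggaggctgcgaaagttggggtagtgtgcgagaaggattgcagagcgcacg
Ier2: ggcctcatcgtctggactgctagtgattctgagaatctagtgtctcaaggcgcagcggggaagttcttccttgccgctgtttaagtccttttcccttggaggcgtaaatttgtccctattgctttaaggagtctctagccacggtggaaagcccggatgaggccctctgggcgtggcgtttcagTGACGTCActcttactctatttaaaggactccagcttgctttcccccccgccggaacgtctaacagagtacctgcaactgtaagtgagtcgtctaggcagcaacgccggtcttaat
Junb: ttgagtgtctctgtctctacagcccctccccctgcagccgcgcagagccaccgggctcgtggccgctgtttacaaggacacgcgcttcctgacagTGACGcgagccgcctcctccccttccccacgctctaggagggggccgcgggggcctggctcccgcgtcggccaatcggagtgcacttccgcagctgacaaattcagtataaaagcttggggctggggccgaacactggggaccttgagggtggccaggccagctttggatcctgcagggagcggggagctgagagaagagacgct

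The *Nr4a1* window held 4 cores, the farthest 246 and the nearest 53 bases before the start. The *Ier2* window held 1 palindrome, which begins 66 bases before the start, and the *Junb* window 1 core, 155 bases before it. A window was at hand for 6 of the 10 members, *Fosb*, *Junb*, *Egr1*, *Egr2*, *Nr4a1* and *Ier2*. The core was in 5 of these 6 and in 21.2% of all 33469 windows of this length, and the palindrome in 1 of 6 and 1.83% of all. A CArG box stood in the windows of *Egr1*, which held 2, and *Egr2*, against 1.64% of all windows. The AP-1 site TGANTCA was in 0 of 6 windows and 7.33% of all, and the EGR site GCGNGGGCG in 1 of 6, that of *Nr4a1*, and 4.98% of all, both strands searched. In *Nr4a1* the EGR match lies between 2 of the cores and overlaps neither. A match is a run of letters, not a measured binding site.

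**Figure D1:**
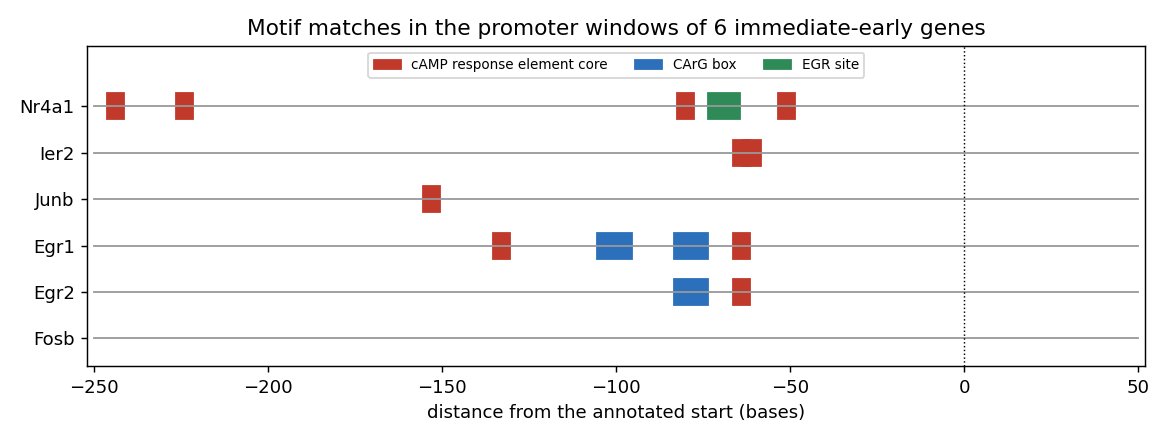
Motif matches in the promoter windows of the 6 members that have one, by distance in bases from the annotated start (0, dotted line); red boxes are cAMP response element cores, blue boxes CArG boxes and the green box an EGR site. *Nr4a1* holds 4 cores, the overlapping pair in *Ier2* is the palindrome, and *Fosb* holds no match.

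A probe set was called by the criterion that the study's methods state, a Rank Product p below 0.05 together with means that differ by more than 0.263 log2 units (1.2-fold). limma, a linear model with one estimate of spread per probe set over all 8 arrays, gave standard errors (SE), 95% intervals and p-values adjusted over all 31042 probe sets. Every log2 level here compares the same probe set between cultures, since levels of different probe sets on an array do not rank genes. Values are means of 2 cultures per plasma unless both are given.

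The arrays were alike in scale, with medians of 5.53 to 5.56 on the log2 scale of the deposited values. Their marker levels were not. Monocyte markers (8 measured) were higher by the criterion in 7 of 8 with each Sprague-Dawley plasma than with autologous plasma. The log2 of their summed signal was 8.65 and 9.35 in the autologous cultures and 11.62 to 12.09 in the other 6. *Cd14*, an endotoxin coreceptor of monocytes, was 5.28 higher in log2 units with control plasma, and *Csf1r*, the receptor of macrophage colony-stimulating factor, 2.89 higher. *Cd163* was near the bottom of the scale in both, at 3.09 and 3.08. *Clec4a*, counted as higher, was also low on the scale, at 3.19 with control and 2.66 with autologous plasma (limma adjusted p = 0.0590). By limma 6, 7 and 6 of the 8 were higher with control, 5% IH and 10% IH plasma. None of 7 T cell markers met the criterion in any of the 6 comparisons, and their summed signal stayed between 13.32 and 13.47. In such mixed cells, fewer cells of a type and less RNA per cell cannot be told apart.

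A group of 3 members was higher with every Sprague-Dawley plasma than with autologous plasma, and all 3 passed limma as well as the criterion each time. *Ier3* stood 12.2- to 13.4-fold higher, the *Fos* probe set 1375043_at 2.30- to 2.54-fold and *Nr4a1* 1.63- to 1.86-fold. With control plasma 6 of the 14 member probe sets were higher and 1 lower by the criterion, where 10.5% of all probe sets were called, and 3 were called by limma, where 1.78% of all were. With 5% IH plasma 8 were higher and 0 lower (10.7% of all), a count that fell to 4 without 5% IH BN2, and 3 were called by limma (1.96% of all). With 10% IH plasma 4 were higher and 1 lower (10.3% of all), again with 3 called by limma (1.25% of all). The median log2 ratio of the 14 was 0.25, 0.27 and 0.05 with control, 5% IH and 10% IH plasma, against -0.01, -0.02 and -0.01 over all probe sets. The 3 comparisons share the autologous arrays, so their likeness is not independent.

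*Ier3* gave the widest span of the members. Its log2 level was 3.88 and 4.45 in the autologous cultures of BN1 and BN2, 7.56 and 7.98 with control plasma, 7.83 and 7.98 with 5% IH plasma and 7.74 and 7.83 with 10% IH plasma. All 6 Sprague-Dawley cultures lay far above both autologous ones. The control cultures overlapped those of both IH plasmas, and the 5% IH cultures lay just above the 10% IH ones. The log2 ratio to autologous plasma was 3.61 with control plasma (SE 0.19, limma adjusted p = 2.52e-05, n = 2), 3.74 with 5% IH (adjusted p = 1.37e-05) and 3.62 with 10% IH (adjusted p = 2.34e-05). Among 14217 genes ranked by this ratio, *Ier3* stood at place 11, 10 and 11 from the top.

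Among the AP-1 genes the largest ratios to autologous plasma were those of *Fos*. Probe set 1375043_at read 4.67 and 5.12 with autologous plasma, 6.25 and 6.22 with control, 6.10 and 6.18 with 5% IH, and 6.12 and 6.07 with 10% IH. Both autologous cultures were below all others, and the other 6 lay close together, between 6.07 and 6.25. The log2 ratio to autologous plasma was 1.34 with control plasma (SE 0.14, limma adjusted p = 0.00102), 1.25 with 5% IH (adjusted p = 0.00128) and 1.201 with 10% IH (adjusted p = 0.00208). The second *Fos* probe set, 1371283_at, did not share this. It read 4.40 to 4.77 over all 8 cultures, with log2 ratios to autologous plasma of -0.15, -0.06 and -0.10 and none called. The 2 probe sets of *Fos* thus disagree, and which reads the transcript better was not tested.

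*Jun*, which pairs with *Fos*, and *Junb*, often a weaker activator than *Jun*, moved less. The brightest *Jun* probe set, 1369788_s_at, read 7.18 and 6.91 with autologous plasma and 7.31 and 7.34 with control plasma, a log2 ratio of 0.27 (SE 0.12, limma adjusted p = 0.490) just past the criterion. The control cultures lay above both autologous ones, but the call was lost in 3 of 4 leave-outs, with a ratio of 0.14 without autologous BN2. The same probe set had ratios of 0.14 with 5% IH and -0.04 with 10% IH plasma, neither called. With 5% IH plasma the other 2 *Jun* probe sets were called higher, at 0.27 and 0.30. Without 5% IH BN2 these were 0.23 and 0.15, neither called. The first, 1374404_at, also lost its call without autologous BN2, at 0.13, and without 5% IH BN1, at 0.31. The second, 1389528_s_at, also lost it without autologous BN1, at 0.26. With a 2-sided Rank Product p neither was called.

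*Junb* read 7.68 and 7.78 with autologous plasma, 7.78 and 7.97 with control, 7.97 and 8.04 with 5% IH, and 8.20 and 8.05 with 10% IH. Its log2 ratio to autologous plasma was 0.14 with control plasma, not called, 0.27 with 5% IH and 0.39 with 10% IH, both higher by the criterion (limma adjusted p = 0.374 and 0.185), the first of which lost its call in 3 of 4 leave-outs, at 0.24 without 5% IH BN2. The 10% IH cultures lay above the autologous and control ones and overlapped no other group. *Fosb*, a Fos paralogue with transcripts low on the scale here (2.85 to 3.31), was lower by the criterion with 10% IH than with autologous plasma, by a log2 ratio of -0.32 (limma adjusted p = 0.307), which lost its call without autologous BN2, at -0.24, and without 10% IH BN1, at -0.27.

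Of the EGR genes only *Egr1*, the family member best known from growth factor responses, was higher than with autologous plasma by its brightest probe set. It read 7.10 and 7.02 with autologous plasma, 7.39 and 7.31 with control, 7.41 and 7.45 with 5% IH, and 7.13 and 7.34 with 10% IH. Every Sprague-Dawley culture was above both autologous ones, though that of BN1 with 10% IH plasma by little. The log2 ratio was 0.29 with control (SE 0.10, limma adjusted p = 0.318) and 0.36 with 5% IH (adjusted p = 0.153), both past the criterion, and 0.17 with 10% IH, not called. The call with control plasma was lost without autologous BN2, at 0.25, and without control BN1, also at 0.25.

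*Egr2* and *Egr3*, regulators of lymphocyte activation and tolerance, lay low on the scale. The brighter *Egr2* probe set, 1387306_a_at, spanned 3.25 to 3.65 and *Egr3* 4.27 to 4.73 over all 8 cultures, and neither was called against autologous plasma. The dimmer *Egr2* probe set, 1398266_a_at, was lower by the criterion with control than with autologous plasma, by a log2 ratio of -0.39 (limma adjusted p = 0.348), where the brighter gave 0.05. The 5 dimmest member probe sets, those of *Fosb*, *Egr2* and *Egr3* and *Fos* 1371283_at, lay below the 40th percentile of all probe sets in mean level, and whether such signal is above background was not tested.

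*Nr4a1* read 5.29 and 5.62 with autologous plasma, 6.08 and 6.27 with control, 6.24 and 6.47 with 5% IH, and 6.16 and 6.18 with 10% IH. Both autologous cultures were lowest, and the Sprague-Dawley plasmas overlapped one another in part. The log2 ratio to autologous plasma was 0.72 with control (SE 0.13, limma adjusted p = 0.0324), 0.89 with 5% IH (adjusted p = 0.00838) and 0.71 with 10% IH (adjusted p = 0.0418). All 3 met the criterion whichever array was left out, but the limma calls were near the threshold. They were lost in 5, 2 and 7 of the 8 leave-outs. Without autologous BN1 the ratios were 0.55, 0.73 and 0.54 and none passed limma, where adjusted p over the 8 leave-outs ran from 0.0276 to 0.293, 0.00983 to 0.0942 and 0.0287 to 0.223.

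*Ier2* differed from the 3 members above in where its levels parted. It read 9.09 and 9.05 with autologous plasma, 9.59 and 9.43 with control, 9.35 and 9.59 with 5% IH, and 9.20 and 9.08 with 10% IH. Control and 5% IH cultures lay above all others, and the 10% IH cultures overlapped the autologous ones. The log2 ratio to autologous plasma was 0.44 with control (SE 0.11, limma adjusted p = 0.115) and 0.40 with 5% IH (adjusted p = 0.160), both past the criterion, and 0.07 with 10% IH (adjusted p = 0.905). Without 5% IH BN2 the second was 0.28 and no longer called.

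**Figure D2:**
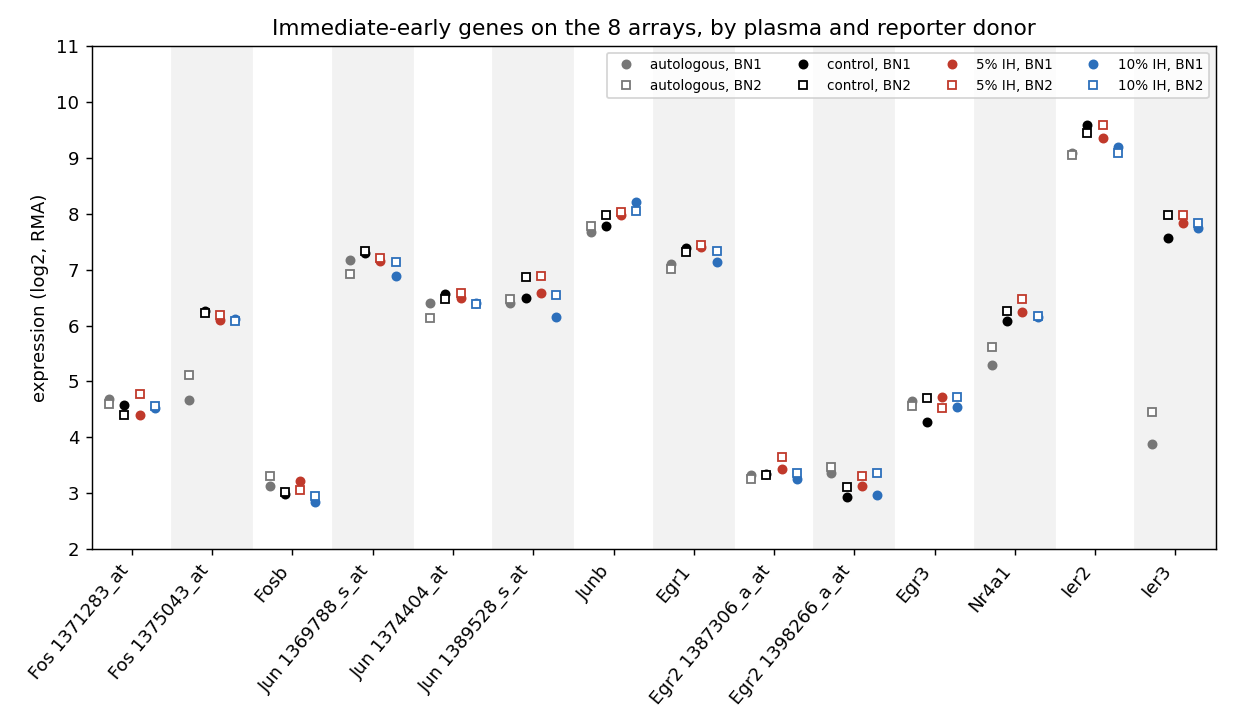
Log2 expression (vertical axis) of the 14 member probe sets in the 8 cultures, with colour for the plasma and filled circles for BN1, open squares for BN2. *Ier3*, *Fos* 1375043_at and *Nr4a1* lie lower in both autologous cultures than in all others, and *Ier2* lies lower with autologous and 10% IH plasma than with control and 5% IH plasma.

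Most monocyte markers were also higher with the Sprague-Dawley plasmas than with autologous plasma. Their median log2 ratio to autologous plasma was 2.27, 2.47 and 2.46 with control, 5% IH and 10% IH plasma. By the criterion 3 of 6, 3 of 6 and 2 of 6 neutrophil markers were higher, and limma called only *Csf3r* each time. *S100a8*, counted with control and 5% IH plasma, had donors on opposite sides. Its ratios in BN1 and BN2 were 0.78 and -0.11 with control and 0.95 and -0.05 with 5% IH plasma. B cell markers (4 measured) were higher in 1, 1 and 2 and lower in 0, natural killer cell markers (6) lower in 1 each time, platelet markers (5) lower in 0, 2 and 0, and red cell markers (3) lower in 1 each time. The part of these cells in the higher levels of *Ier3*, *Fos* and *Nr4a1* was not tested.

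**Figure D3:**
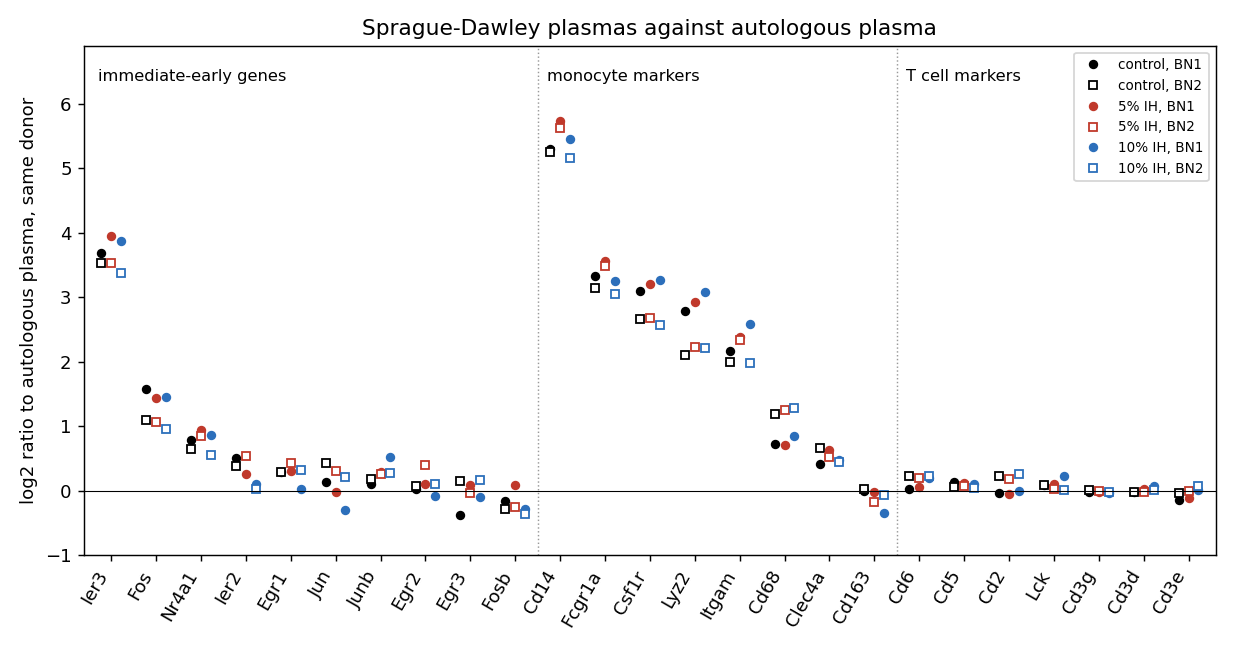
Log2 ratio of each Sprague-Dawley culture to the autologous culture of the same donor number (vertical axis) for the 10 members by their brightest probe set, 8 monocyte markers and 7 T cell markers; circles are BN1 and squares BN2. *Ier3* lies at 3.38 to 3.96 and the monocyte marker *Cd14* above it, while the T cell markers stay near 0.

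Against control plasma, no member met the criterion with 5% IH plasma. Of the 14 probe sets 0 were called, where 3.1% of all probe sets were, and limma called 0 members and 0% of all, with 0 members at an unadjusted p below 0.05, where 2.54% of all probe sets were. The ratio was above 0 in 11 of 14, with a median of 0.11 against a median near 0 over all probe sets. The 14 share the same arrays and some share a gene, so this count is a description and no test. The highest were *Egr2* at 0.20 and 0.19 by its 2 probe sets, with 95% intervals of -0.02 to 0.43 and -0.12 to 0.51, and *Nr4a1* at 0.18 (-0.12 to 0.48). *Ier3* had 0.13 (-0.30 to 0.57) and *Fos* 1375043_at -0.10 (-0.40 to 0.21), intervals that reach past 1.2-fold.

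That count of 0 changed when single cultures were left out, which leaves fewer between-array ratios. Here and below, the share of all probe sets called in the same leave-out is not given. Leave-out counts are thus no result about the members. Without control BN2, 4 member probe sets met the criterion as higher: *Egr2* 1398266_a_at at 0.28, *Egr3* at 0.36, *Nr4a1* at 0.27 and *Ier3* at 0.35. Without 5% IH BN1, *Nr4a1* at 0.29, both *Egr2* probe sets at 0.31 and 0.29, and *Fos* 1371283_at at 0.28 did. In the same comparison 3 of 8 monocyte markers were higher by the criterion (*Cd14* by 0.40, *Fcgr1a* and *Itgam* by 0.28 each), none by limma.

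Against control plasma, 10% IH plasma gave 3 called member probe sets from 2 genes, all lower, where 6.95% of all probe sets were called. limma called 0 members and 0% of all, and 3 members (*Ier2* and *Jun* 1369788_s_at lower, *Junb* higher) had an unadjusted p below 0.05, as did 5.19% of all probe sets. *Ier2* fell by 0.37 on the log2 scale (1.30-fold, SE 0.11, 95% interval -0.62 to -0.13, limma adjusted p = 0.920). The ratio was -0.39 in cells of BN1 and -0.36 in cells of BN2, and both 10% IH cultures lay below both control cultures. Leaving out any 1 of these 4 arrays kept the call, at -0.45 to -0.30.

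*Jun* 1369788_s_at read 6.88 and 7.13 with 10% IH plasma against 7.31 and 7.34 with control, with no overlap, and *Jun* 1389528_s_at 6.16 and 6.54 against 6.49 and 6.86, with overlap. Their log2 ratios were -0.32 (SE 0.12) and -0.32 (SE 0.17), each with a limma adjusted p = 0.920, and both donors were on the same side. The third, 1374404_at, gave -0.13 and was not called. The first lost its call without 10% IH BN1, at -0.19, and the second without that array or without control BN2, at -0.13 and -0.14. *Junb* went the other way, with 0.42 in BN1 and 0.08 in BN2, a mean of 0.25 (95% interval 0.02 to 0.49) that just missed the fold threshold. It was called without control BN2, at 0.34, and without 10% IH BN2, at 0.33. Also called as higher were *Egr3* without control BN2, at 0.36, and *Egr2* 1398266_a_at without 10% IH BN1, at 0.34. Leaving out 1 array at a time, 2 to 4 member probe sets were called. *Fos*, *Fosb*, *Nr4a1* and *Ier3* were not called, the last 2 at -0.01 and 0.02.

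**Figure D4:**
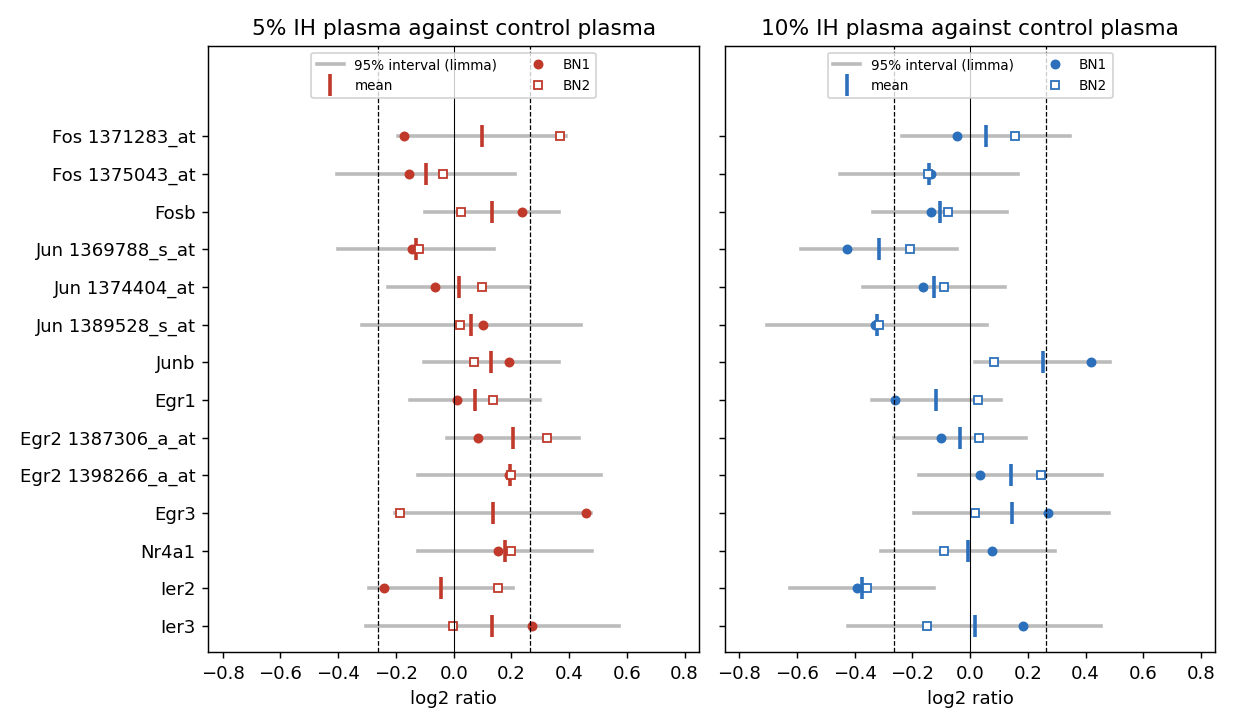
Log2 ratio to control plasma (horizontal axis) of the 14 member probe sets with 5% IH plasma (left) and 10% IH plasma (right); vertical ticks are means, grey bars limma's 95% intervals, circles BN1, squares BN2, and dashed lines the 1.2-fold threshold. With 10% IH plasma *Ier2* and 2 *Jun* probe sets lie beyond the lower line, and with 5% IH plasma no mean lies beyond either line.

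Marker lists moved little in that comparison. With 10% IH plasma 0 of 8 monocyte markers and 0 of 7 T cell markers met the criterion, 1 of 4 B cell markers was lower (*Blk*, log2 ratio -0.39) and 1 of 3 red cell markers higher (*Alas2*, log2 ratio 0.31). Any part of these cells in the values of *Ier2* and *Jun* was not tested.

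Set directly against each other, 5% IH plasma gave higher levels than 10% IH plasma for 2 member probe sets and lower for 0 by the criterion, where 6.33% of all probe sets were called. limma again called 0 members and 0% of all, and 4 members had an unadjusted p below 0.05, as did 4.68% of all. *Ier2* was 0.33 higher (SE 0.11, 95% interval 0.08 to 0.58, limma adjusted p = 0.981), with 0.15 in BN1 and 0.51 in BN2 and no overlap of the groups. *Jun* 1389528_s_at was 0.39 higher (SE 0.17, 0.00 to 0.77), with 0.43 and 0.34 in the 2 donors. Neither call held in all leave-outs. *Ier2* lost it without 5% IH BN2, at 0.21, and without 10% IH BN2, at 0.27. *Jun* lost it without 5% IH BN2, at 0.24, and without 10% IH BN1, at 0.19. Without 5% IH BN1 4 probe sets were called, *Egr2* 1387306_a_at at 0.35 and *Nr4a1* at 0.30 being added. The ratio was above 0 in 12 of 14 probe sets, with a median of 0.16 against -0.002 over all probe sets. The 14 share the same arrays and some share a gene, so this count is a description and no test. In the same comparison 2 of 8 monocyte markers were higher by the criterion (*Cd14* and *Fcgr1a*, log2 ratio 0.37 each), 1 of 5 platelet markers was lower (*Itga2b*, log2 ratio -0.27) and 0 of 7 T cell markers were called, and any part of these cells in the values of *Ier2* and *Jun* was not tested.

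The order of the 4 plasmas differed among members. For *Ier3* and *Nr4a1* it ran 5% IH first and autologous last, and for *Fos* 1375043_at control, 5% IH, 10% IH, autologous. In these 3 only the last step, down to autologous plasma, met the criterion. For *Ier2* the order was control, 5% IH, 10% IH, autologous, and only the step from 5% IH to 10% IH met it. For *Junb*, *Egr1*, *Egr3*, *Fosb* and each probe set of *Jun* and *Egr2* no step between neighbours did.

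Genes that work with the members were counted from lists of related genes. Of 12 other AP-1 subunits and dimer partners, 3 were higher by the criterion with control than with autologous plasma. In that comparison 10.5% of all probe sets were called. *Jdp2*, a repressor that pairs with Jun proteins, was higher by 0.56 (limma adjusted p = 0.0448, and 0.0590 with donor as a block, which ends that call). *Atf3*, a stress-induced repressor low on the scale here (mean 3.35), was higher by 0.34 (limma adjusted p = 0.191). *Mafg*, a small Maf protein, was higher by 0.31 (limma adjusted p = 0.339). None of the 12 was called with either IH plasma against control, where 3.1% (5% IH) and 6.95% (10% IH) of all probe sets were. With 5% IH against 10% IH plasma 2 were lower, where 6.33% of all probe sets were called. These were *Jdp2*, with a log2 ratio of -0.35, and *Fosl2*, a Fos paralogue, with -0.33. The mean level of *Fosl2*, 4.82, lay below the 40th percentile of all probe sets. Of 5 other EGR and NR4A genes and EGR corepressors, 0 were called against autologous plasma with control plasma and 1 was lower with 10% IH than with control plasma, *Nr4a2*, a relative of *Nr4a1*, with a log2 ratio of -0.30 (-0.40 in BN1, -0.20 in BN2, limma adjusted p = 0.920).

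Of 25 other immediate-early genes measured, 5 were higher and 3 lower by the criterion with control than with autologous plasma. In that comparison 10.5% of all probe sets were called, and limma called 1 of the 25, *Klf10*. *Bhlhe40*, a basic helix-loop-helix repressor, was 0.90 higher, with 1.27 in BN1 and 0.53 in BN2 (limma adjusted p = 0.170). *Klf10*, a zinc finger factor of transforming growth factor signalling, was 0.72 higher (limma adjusted p = 0.00936). *Klf4*, known from monocyte differentiation, was 0.63 higher (limma adjusted p = 0.204, and 0.0281 with donor as a block, which makes a call). *Myc*, a growth regulator, was 0.45 higher (limma adjusted p = 0.0562). Only *Ccn2*, a matricellular growth factor low on the scale here (mean 3.25), was called with 5% IH against control plasma, at 0.28. Of all probe sets 3.1% were called there. With 10% IH against control plasma *Ccn2* was higher by 0.33 and *Ier5l*, a relative of the IER genes also low on the scale (mean 4.14), by 0.26. Of all probe sets 6.95% were called there. In neither comparison did limma call any of the 25. With 5% IH against 10% IH plasma *Klf10* was 0.29 and *Myc* 0.28 higher by the criterion, the only 2 of the 25 called. Of all probe sets 6.33% were called there.

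Transcripts of proteins known to switch the members on were counted in the same way. Of 11 upstream transcription factors measured, serum response factor and CREB partners among them, 1 was lower with control than with autologous plasma. This was *Crem*, a CREB relative, with a log2 ratio of -0.42 (limma adjusted p = 0.237). Of 12 upstream kinases, *Map2k1*, a kinase of the ERK cascade, was higher by 0.48 (limma adjusted p = 0.0245). *Rps6ka5*, which phosphorylates CREB, was lower, with a log2 ratio of -0.35 (limma adjusted p = 0.360). These counts stand beside the 10.5% of all probe sets called in that comparison. No gene of either list was called with either IH plasma against control, where 3.1% (5% IH) and 6.95% (10% IH) of all probe sets were. With 5% IH against 10% IH plasma 0 of the 11 factors and 1 of the 12 kinases was called, against 6.33% of all probe sets.

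A span of over 1 log2 unit was seen in 3 members, and their nearest genes by Pearson correlation over the 8 arrays, out of 14216 others, are given as a description. For *Ier3* these were *Tgfbi* (r = 0.999), *Hopx* (0.998) and *Clec4a3* (0.998), for *Fos* *Fn1* (0.995), *Agpat2* (0.993) and *Ccr1* (0.993), and for *Nr4a1* *Cd44* (0.990), *Pilrb2l4* (0.989) and *Hif1a* (0.988). Without the autologous arrays the values fell for *Fos* and, less so, for *Ier3*, while those for *Nr4a1* stayed high. Over the 6 Sprague-Dawley arrays alone r was 0.772, 0.799 and 0.845 for the genes of *Ier3*, 0.495, 0.662 and 0.0698 for those of *Fos*, and 0.919, 0.921 and 0.972 for those of *Nr4a1*.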

How the data were processed

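The authors quantified the arrays with Expression Console and normalized them together by Robust Multichip Analysis, and the deposited values are log2 expression per probe set. Partek appears in the submitters' processing notes without a version. Of 31042 probe sets, 20826 carry 1 gene symbol in the annotation used. The values were not scaled again. Array data carry no read depth, and 2 arrays per group limit the precision. Groups follow the plasma. The replicate number was taken as the reporter rat, which pairs cultures across groups. For the autologous arrays this pairing is in doubt, as stated above. Same-numbered deviations from group means correlated at 0.240, 0.0590 and 0.165 among the 3 Sprague-Dawley plasmas and at -0.00387, -0.0833 and -0.171 between these and autologous plasma.

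The Rank Product was computed in Python 3.11.15 from all 4 between-array ratios with 100 permutations of values within arrays and a 1-sided p, in place of the study's R package. The fit across all probe sets used limma 3.58.1 (R 4.3.3) with 4 groups and 8 arrays, and its p-values were adjusted by Benjamini-Hochberg. A gene with several probe sets is represented by the one with the highest mean where 1 value is given. Related genes are named by up to 4 per list with the largest ratio among those that met the criterion on the same side in both donors. The steps were tested on simulated data. The members, gene lists and marker lists were chosen with earlier results of these data known, so they are no independent support for one another. Motifs were searched on both strands of RefSeq windows of build GRCr8, the reference of the Brown Norway strain, which served for sequence and names only. Alternatives were ratios within donor or donor in the fit, a 2-sided p, the fold threshold alone, repeated quantile normalization, median centring, a filter at the 40th percentile of mean level, probe sets averaged per gene, a fit to the 2 groups compared, robust moderation with an intensity trend, and each array left out. A fit to the 6 Sprague-Dawley arrays alone was added after seeing the data.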

Additional observations from a re-analysis of the deposited data

How the results depend on the processing

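No ratio of a called member changed its sign under any alternative run. Of the single-probe-set results under alternatives, 814 kept their side of the criterion, 34 lost a call and 22 gained one, and for limma 1228 kept their side, 18 lost a call, all of them *Nr4a1* against autologous plasma, and 2 gained one, both *Ier2* with an intensity trend and robust moderation. With a 2-sided Rank Product p the members called with 5% IH over autologous plasma were 5 in place of 8, and leaving out each array gave 4 to 7. For 5% IH over control plasma leaving out each array gave 0 to 4 called, and for 5% IH over 10% IH plasma 1 to 4. All leave-out counts rest on fewer between-array ratios. The shares of all probe sets given above hold with no array left out, so they are no baseline for leave-out counts. With probe sets averaged per gene, 1 gene was called for 10% IH over control plasma, *Ier2*, since *Jun* stood at -0.26. With the pairing by donor, as ratios within donor (replicate block), the members called were 7, 8 and 5 for control, 5% IH and 10% IH over autologous plasma, 0 and 3 for 5% IH and 10% IH over control and 2 for 5% IH over 10% IH, as without the block. With donor in the fit (replicate block) limma called 3 members in each comparison with autologous plasma and 0 in the others, and the pairing changed no call of a member. Among the related genes named for control over autologous plasma it ended the limma call of *Jdp2* and gave one to *Klf4*. Fitted to the 6 Sprague-Dawley arrays alone, an alternative added after seeing the data, limma called 0 members in each of the 3 comparisons among these plasmas. With 2 arrays a group, an effect near 1.2-fold lies inside limma's intervals for most members, so that such effects could not be detected or set aside here. Each plasma is 1 pool, so differences between pools and differences between treatments cannot be told apart.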
